A study of Arabidopsis thaliana with 4 samples.

Results

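SR genes of 4 subfamilies were examined in *Arabidopsis thaliana*. These are 10 genes that encode serine/arginine-rich (SR) splicing factors of the SCL, SC, RSZ, and RS2Z subfamilies, out of 22409 loci in the deposited expression table. The 10 genes are named members of these subfamilies and were not picked by a measured threshold, although earlier results of these data were known. All 10 had a value in every library. They are *SCL28* (AT5G18810), *SCL30* (AT3G55460), *SCL30A* (AT3G13570), and *SCL33* (AT1G55310), *SC35* (AT5G64200), *RSZ21* (AT1G23860), *RSZ22* (AT4G31580), and *RSZ22a* (AT2G24590), and *RS2Z32* (AT3G53500) and *RS2Z33* (AT2G37340). RNA was sequenced from wild-type seedlings (Col-0), from *upf1-5* and *upf3-1* mutants, and from the *upf1-5 upf3-1* double mutant, with 1 library for each of the 4 genotypes. All were grown at 23°C in long days, on half-strength MS plates per the labels and on MS plates per the methods of the study, and taken at Zeitgeber time 16. Both alleles are T-DNA insertions, the double mutant came from a cross of the single mutants, and each library was made from pooled seedlings. *UPF1* and *UPF3* encode core factors of nonsense-mediated mRNA decay (NMD), and the comparisons ask how transcript levels differ when either or both are impaired. No genotype had a replicate, so every difference given here compares 2 libraries and carries no p-value or SD.

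SR proteins bind pre-mRNA through an RNA recognition motif and contact spliceosome components through a domain rich in arginine and serine. Through these contacts they take part in the choice of splice sites. The SCL proteins are a plant group related to SC35 with a charged extension before the RNA recognition motif. The RSZ proteins carry a CCHC zinc knuckle, and the RS2Z proteins carry a pair of them. Many plant SR genes are themselves alternatively spliced, and some of their transcripts carry a premature stop codon, which is a feature that NMD can recognize. The values used here are FPKM per gene, a fragment count scaled to transcript length and to the size of the library, which add all transcripts of a gene together. A change in the share of its isoforms is therefore not seen in these values.

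The mutated genes were read first. *UPF1* (AT5G47010) was at 23.9 FPKM in wild-type seedlings, 3.18 in *upf1-5*, 30.6 in *upf3-1*, and 8.27 in the *upf1-5 upf3-1* library. *UPF3* (AT1G33980) was at 20.8 FPKM in wild-type seedlings, 33.7 in *upf1-5*, 6.36 in *upf3-1*, and 7.10 in the *upf1-5 upf3-1* library. Each was lowest in the libraries that carry its own insertion, and the library taken as the double mutant, by elimination of the names in the table, had both below wild type. The libraries also differed in other ways, of which some, but not all, move with *upf3-1*. The summed FPKM was 1040995 in wild-type seedlings and 997083 in *upf1-5*, against 797314 in *upf3-1* and 775445 in the double mutant. The leaf marker *RBCS1A*, a Rubisco small subunit gene, was at 18826, 16528, 9140, and 8395 FPKM in the same order, while the leaf markers *LHCB2.2* and *CAB3* were 3.94-fold and 0.769-fold the wild-type level in the double mutant. The root hair marker *COBL9* was at 0.979, 1.07, 2.95, and 4.06 FPKM, and the root marker *PYK10* at 1918, 1625, 3558, and 1517. Of the markers foreign to seedlings, the floral gene *PI* was at 4.61 FPKM in wild-type seedlings against 0.400 to 0.733 in the mutants, *AP3* stayed between 0.108 and 0.311 FPKM, and the seed storage gene *CRU3* was at 8.94 FPKM in the double mutant against 0.0808 to 0.902 elsewhere. The floral *AG* and the seed *SESA1* had no value here. The part of tissue makeup in the values below was not tested, and in whole seedlings fewer cells of a type and less RNA per cell cannot be told apart.

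All SR genes of the set but *SCL28* were abundant. In wild-type seedlings the order of the levels was *RS2Z32* at 72.3 FPKM, *RS2Z33* at 62.1, *RSZ22* at 57.9, *SCL30* at 53.2, *RSZ22a* at 51.9, *SCL30A* at 51.2, *SC35* at 34.5, *SCL33* at 34.1, *RSZ21* at 29.4, and *SCL28* at 2.65. Neighbours in this order, such as *RSZ22a* and *SCL30A* or *SC35* and *SCL33*, lie within a few percent of each other, and without replicates it cannot be said that they differ. *RS2Z32* was also the highest in *upf1-5*, but *RSZ22a* took the first place in *upf3-1* and in the double mutant. *RSZ22a* and *RS2Z32* were at 60.8 and 56.6 FPKM in *upf3-1* and at 71.2 and 69.7 in the double mutant. Without replicates it cannot be said that they differ there either. *RSZ21* and *SCL28* held the last places in all 4 libraries.

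**Figure D1:**
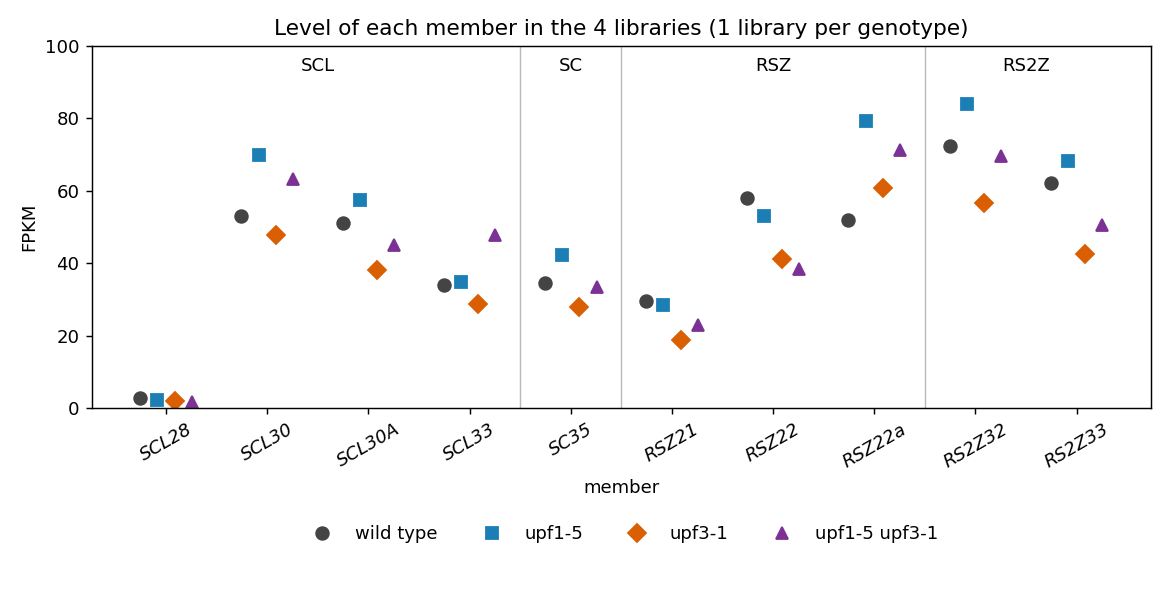
FPKM (linear axis) of each SR gene in the 4 libraries, grouped by subfamily, with 1 point per library and no error bar because each genotype had 1 library. *SCL28* stays between 1.63 and 2.65 FPKM, and *RSZ22a* is the only gene of the set with all 3 mutants above wild type.

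No SR gene of the set reached a 2-fold difference from wild-type seedlings in any mutant. With 2-fold and 1 FPKM in at least 1 of both libraries as the limits, 7.64% of all loci were higher and 2.4% lower in *upf1-5*, 14.6% were higher and 6.9% lower in *upf3-1*, and 15% were higher and 6.91% lower in the *upf1-5 upf3-1* library. At 1.5-fold, 4 differences were found among 30 (10 genes in 3 mutants). *RSZ22a* was higher in *upf1-5*, where 14.9% of all loci were higher and 6.47% lower at that limit. *RSZ21* was lower in *upf3-1*, where 22.5% of all loci were higher and 17.9% lower. *SCL28* and *RSZ22* were lower in the double mutant, where 23.3% of all loci were higher and 17.3% lower. These shares of the members, between 0 and 2 of 10, are near or below those of all loci. With the libraries rescaled to the same 75th percentile, *RSZ21* in *upf3-1* (log2 ratio of -0.58) and *RSZ22* in the double mutant (-0.52) were no longer past 1.5-fold. With a pseudocount of 1 FPKM, *SCL28* in the double mutant (-0.47) was no longer past it.

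The 10 genes had a median log2 ratio to wild type of 0.15 in the *upf1-5* library, -0.38 in the *upf3-1* library, and -0.12 in that of the double mutant. Over the 20048 loci with 1 FPKM or more in any library it was 0.00, -0.01, and 0.01. Abundant loci as a class were lower in the mutants. Over the 4351 loci whose mean FPKM over the 4 libraries lay between 24.9 and 70.6, the range of the 9 abundant SR genes, the medians were -0.05, -0.13, and -0.15. The 9 SR genes had medians of 0.17, -0.35, and -0.05. Their medians were thus above that of their abundance class in *upf1-5* and in the double mutant, and below it in *upf3-1*. The quartiles of that class were -0.21 and 0.17 in *upf1-5*, -0.46 and 0.21 in *upf3-1*, and -0.49 and 0.17 in the double mutant. The median of the 9 genes was at the upper quartile in *upf1-5* and between the quartiles in the other mutants.

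**Figure D2:**
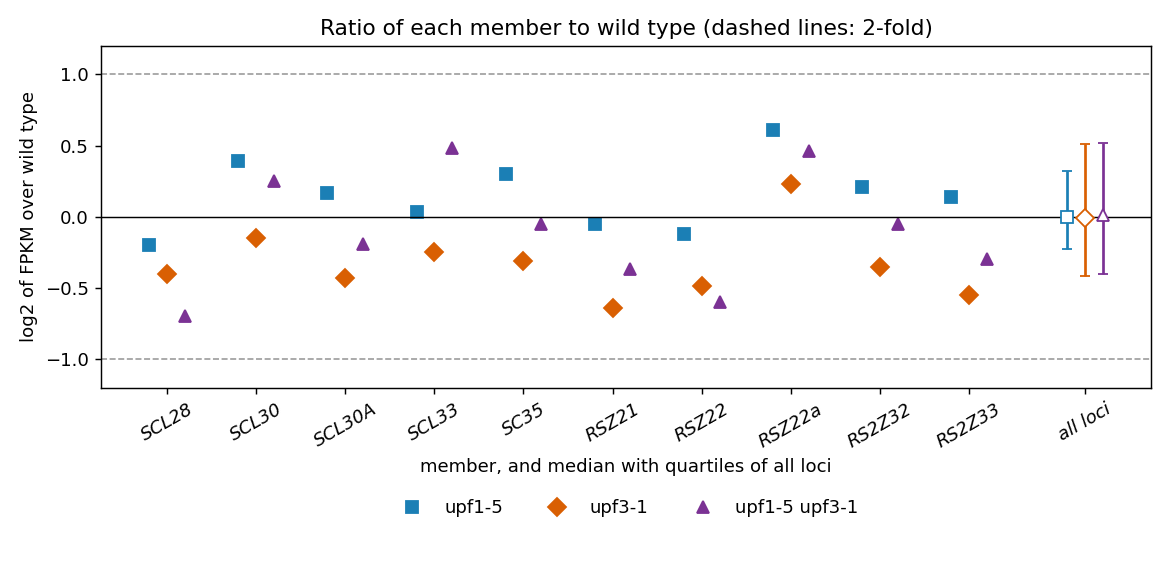
Log2 ratio of FPKM to wild type for each SR gene in the 3 mutants (filled points), and the median with quartiles of all 20048 loci (open points, bars from the lower to the upper quartile). All filled points lie inside the dashed 2-fold lines, and *upf3-1* is below 0 for 9 of the 10 genes.

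The SCL genes did not share 1 pattern. *SCL30* was at 53.2 FPKM in wild-type seedlings, 69.8 in *upf1-5*, 47.9 in *upf3-1*, and 63.3 in the *upf1-5 upf3-1* library, so the libraries with the *upf1-5* mutation were the higher ones. *SCL30A* was at 51.2, 57.5, 38.1, and 44.9 FPKM in the same order, with the highest value again in *upf1-5* and both libraries with *upf3-1* below wild type. *SCL33*, whose protein in Arabidopsis binds its own pre-mRNA and affects its own splicing, was at 34.1, 34.8, 28.7, and 47.7 FPKM. Its value in the double mutant was 1.40-fold wild type, while *upf1-5* was 1.02-fold and *upf3-1* 0.842-fold. *SCL33* had the widest range of the set, 0.73 on the log2 scale between its highest and lowest library. The summed FPKM of the 4 SCL genes was 141.1 in wild-type seedlings, 164.3 in *upf1-5*, 116.7 in *upf3-1*, and 157.5 in the *upf1-5 upf3-1* library.

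*SCL33* is also the SCL gene with the most annotated transcripts. The TAIR10.1 annotation gives it 7 models, against 2 for *SCL28* and 1 each for *SCL30* and *SCL30A*. Its intron 3, of 567 nt in the full-length model, is followed by a 36-nt exon that 3 of the other models skip by joining the flanking exons over an intron of 765 nt. Another model, of 5 exons against 7 in the full-length model, keeps intron 3 and differs elsewhere too. In it, reading from the start codon of the full-length model meets a stop after 74 codons, 1061 nt before the last exon junction. The stop codon begins at base 2 of the intron, and it is shown here in capitals because it is the only premature stop annotated among the SCL genes (chr1:20631109-20631135, plus strand, TAIR10.1).
SCL33 stop: tattataccgggTGAgcatgttttgta
RefSeq itself places the start codon of that model downstream. The table does not give the level of this model apart from the others, so its part in the 1.40-fold value of the double mutant was not tested.

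*SCL28* was the low member and differed from the other SCL genes. It was at 2.65 FPKM in wild-type seedlings, 2.30 in *upf1-5*, 2.01 in *upf3-1*, and 1.63 in the *upf1-5 upf3-1* library, which are 0.871, 0.758, and 0.618 of the wild-type value. In Arabidopsis *SCL28* is known as a gene of the G2 and M phases that the activator MYB3R4 turns on, and its protein acts in cell size control. The G2 and M phase genes did not take the same direction. All 10 of a list of such genes were higher than wild type in each mutant, by 1.10- to 1.80-fold in *upf1-5*, 1.31- to 2.73-fold in *upf3-1*, and 1.28- to 1.86-fold in the *upf1-5 upf3-1* library. The genes of this list past 2-fold were *PLE* (5.11 FPKM in wild-type seedlings and 14.0 in *upf3-1*), *CYCB1;1* (3.69 and 8.64), *CDC20.1* (20.2 and 42.8), and *KN* (27.5 and 57.0). *PLE* encodes a microtubule-associated protein and *KN* a syntaxin of cytokinesis, *CYCB1;1* a mitotic cyclin, and *CDC20.1* an activator of the anaphase-promoting complex. Of all loci, 30.9% were higher than wild type in every mutant and 30.3% lower in every mutant, and *SCL28*, *RSZ22*, and *RSZ21* were among the latter. *MYB3R4* itself was at 3.20, 3.92, 5.92, and 5.42 FPKM, and its relative *MYB3R1* at 13.2, 11.2, 13.8, and 14.0.

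The binding element of MYB3R proteins has the core AACGG. It was searched on both strands (as AACGG or CCGTT) from 250 bases before to 50 bases after the annotated start of each gene. The core was found for 8 of the 10 G2 and M phase genes and for 24.7% of 27443 promoters. Of the SR genes it was found for *SCL30A*, *RS2Z32*, and *RS2Z33*. These letters are not in the window of *SCL28*, which says nothing about other positions or about the factor.

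*SC35*, the plant gene most like the human SC35 factor, followed the pattern of *SCL30A*. It was at 34.5 FPKM in wild-type seedlings, 42.4 in *upf1-5*, 27.8 in *upf3-1*, and 33.3 in the *upf1-5 upf3-1* library. The double mutant was 0.965-fold wild type, between the values of the single mutants. *SC35* overlaps AT5G64190 on the opposite strand by 64 nt, and that neighbour was listed at 0.0768 to 0.575 FPKM.

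The RSZ genes split. *RSZ22a* was higher than wild type in every mutant, and *RSZ22* and *RSZ21* were lower in every mutant. Of all loci, 30.9% were higher and 30.3% lower in every mutant, and every comparison uses the same wild-type library. *RSZ21* in *upf1-5* was at 0.964 of wild type, which without replicates cannot be said to differ. *RSZ22a* was at 51.9 FPKM in wild-type seedlings, 79.2 in *upf1-5*, 60.8 in *upf3-1*, and 71.2 in the *upf1-5 upf3-1* library. *RSZ22* was at 57.9, 53.1, 41.2, and 38.2 FPKM in the same order. *RSZ21* was at 29.4, 28.4, 18.8, and 22.8 FPKM, so its *upf3-1* value was 0.640 of wild type. RSZ21 and RSZ22 are known in Arabidopsis to bind the U1-70K protein of the U1 snRNP.

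*RSZ22a* and *RSZ22* are the closest pair of the set. Their proteins were identical at 87.1% of aligned positions and their coding sequences at 81.6%, whereas RSZ21 matched RSZ22 at 60.8% and RSZ22a at 59.2%. The ratio of *RSZ22a* to *RSZ22* within a library was 0.897 in wild-type seedlings, 1.49 in *upf1-5*, 1.48 in *upf3-1*, and 1.86 in the *upf1-5 upf3-1* library. The order of both genes was thus turned in all 3 mutants, and the ratio in the double mutant was 2.08-fold that of wild type. Their sum moved less than either gene in 2 of the 3 mutants. It was 109.8 FPKM in wild-type seedlings, 132.3 in *upf1-5*, 102.0 in *upf3-1*, and 109.5 in the *upf1-5 upf3-1* library.

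Because reads are assigned by sequence, the transcripts of both genes were compared letter by letter. The longest run that the full-length models of *RSZ22a* and *RSZ22* share is 23 nt, and none of the 950 stretches of 50 nt in *RSZ22a* occurs in *RSZ22*. The stretch that encodes the zinc knuckle is shown because the single knuckle is what the 3 RSZ genes share and shows how near their sequences are, with the codons of the cysteines and the histidine in capitals (TAIR10.1, chr2:10450312-10450353 on the plus strand, chr4:15307560-15307601 on the plus strand, and chr1:8428685-8428726 on the minus strand).
RSZ22a zinc knuckle: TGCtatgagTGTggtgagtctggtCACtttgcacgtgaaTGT
RSZ22 zinc knuckle: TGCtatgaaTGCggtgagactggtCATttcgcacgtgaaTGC
RSZ21 zinc knuckle: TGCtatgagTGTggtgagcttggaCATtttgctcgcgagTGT
Over these 42 bases *RSZ22a* differs from *RSZ22* at 6 and from *RSZ21* at 7. The 3 genes also differ at their ends. The 3′-UTR of the full-length model is 971 nt long in *RSZ22*, 834 nt in *RSZ21*, and 324 nt in *RSZ22a*, although another model of *RSZ22* has 283 nt. Long 3′-UTRs are another feature that plant NMD can recognize. The levels of the transcripts with each end were not analysed here.

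**Figure D3:**
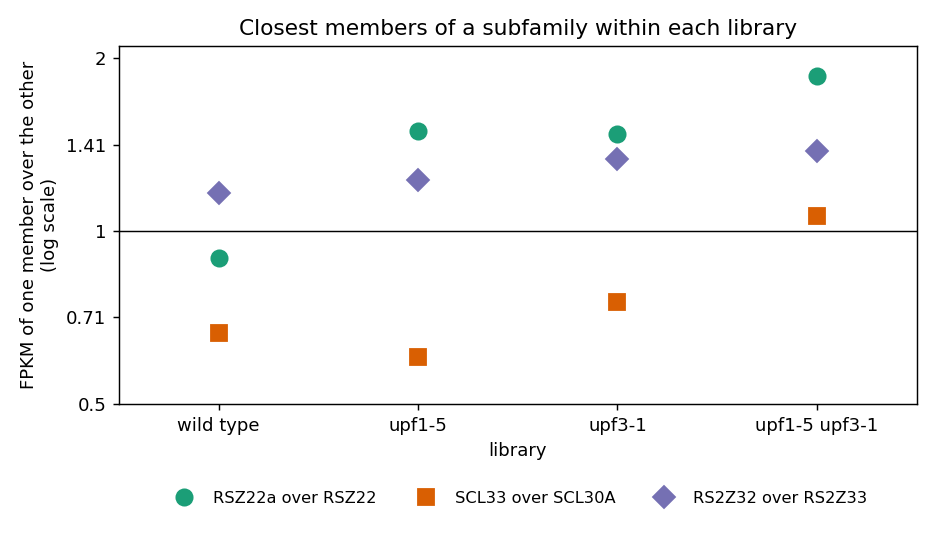
FPKM of one gene over that of its closest relative within each library (log axis, 1 point per library). *RSZ22a* over *RSZ22* goes from 0.897 in wild type to between 1.48 and 1.86 in the mutants, and *SCL33* over *SCL30A* is above 1, at 1.06, in the double mutant alone.

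In the other close pairs the order was turned in 1 mutant or in none. *SCL30A* and *SCL33* have proteins identical at 67.0% of aligned positions. The ratio of *SCL33* to *SCL30A* was 0.665 in wild-type seedlings, 0.605 in *upf1-5*, 0.753 in *upf3-1*, and 1.06 in the *upf1-5 upf3-1* library. Its order was thus turned in the double mutant, at 47.7 against 44.9 FPKM, which without replicates cannot be said to differ. RS2Z32 and RS2Z33 are identical at 76.2%. The ratio of *RS2Z32* to *RS2Z33* was 1.17, 1.23, 1.33, and 1.38 in the same order, and *RS2Z32* was the higher in every library.

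Both RS2Z genes had the same order of libraries. *RS2Z32* was at 72.3 FPKM in wild-type seedlings, 83.8 in *upf1-5*, 56.6 in *upf3-1*, and 69.7 in the *upf1-5 upf3-1* library. *RS2Z33*, whose protein in Arabidopsis acts on the splicing of its own transcript, was at 62.1, 68.2, 42.5, and 50.5 FPKM. Each was highest in *upf1-5* and lowest in *upf3-1*. *RS2Z33* overlaps 2 genes on the opposite strand, AT2G37330 by 41 nt and a lncRNA, AT2G08865, that lies within it over 852 nt. *RS2Z32* overlaps AT3G53490 by 65 nt. AT2G37330 was at 5.22 to 9.15 FPKM and AT3G53490 at 4.36 to 8.72, and the lncRNA was not analysed here. The methods of the study give a stranded kit but default mapping settings, which treat reads as unstranded, so reads of these overlapping genes may not have been told apart.

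Both RS2Z genes have the same annotated alternative in their long intron 2. The intron is 488 nt in the full-length model of *RS2Z32* and 624 nt in that of *RS2Z33*. Other models use an acceptor inside the intron, which adds 218 nt to the next exon in both genes. The added stretches are identical at 76.9% of aligned positions. The coding sequences are identical at 76.7%, but their alignment used other match and gap scores, so both values are not strictly comparable. The rest of the intron (270 and 406 nt) matches at 46.3% of aligned columns, gaps included. Its unequal lengths alone lower that value, so it cannot be compared with that of the added stretches. The acceptor windows are shown because they carry this shared event, with the last bases of the intron in capitals (TAIR10.1, minus strand, chr3:19836121-19836150 and chr3:19835903-19835932 for *RS2Z32*, chr2:15671809-15671838 and chr2:15671591-15671620 for *RS2Z33*).
RS2Z32 upstream acceptor: cttgaatgatcttgttgaAGgtttctgggg
RS2Z33 upstream acceptor: cttgaatgatcttattgaAGgtctctggga
RS2Z32 full-length acceptor: tctggcaacaatttacgcAGagtacgagat
RS2Z33 full-length acceptor: gccaacaatttcttccgcAGagtgcgagat
With the upstream acceptor, reading from the start codon of the full-length model meets a stop after 54 codons in *RS2Z32* and after 60 codons in *RS2Z33*. These stops, in capitals, begin at base 56 and base 74 of the added stretch (chr3:19836061-19836087 and chr2:15671731-15671757, minus strand), and the last exon junction lies 592 and 562 nt further on.
RS2Z32 stop: tggactgtggtgTAAttggtggaaatt
RS2Z33 stop: tcgccaagtgttTAGgggacagggcgc
RefSeq places the start codons of these models downstream of the stop. One model of *RS2Z32* and 4 of *RS2Z33* use the upstream acceptor.

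**Figure D4:**
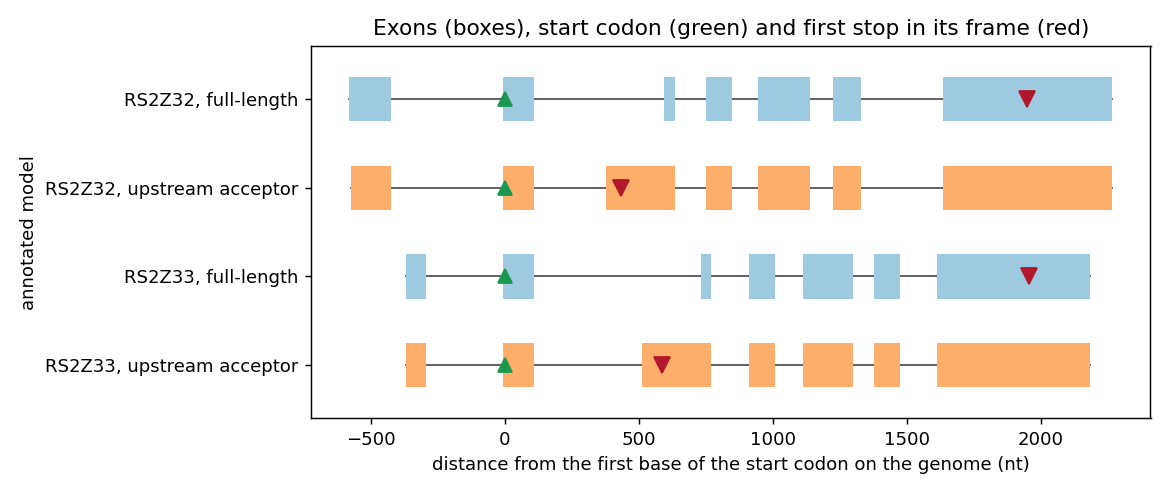
Annotated models of *RS2Z32* and *RS2Z33* with the full-length and the upstream acceptor of intron 2, as distance from the start codon on the genome in nt (boxes are exons, lines introns). In both genes exon 3 grows by 218 nt towards the start codon, and the first stop in frame (red) falls inside the added part.

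Across the set, 3 of the 10 genes (*SCL33*, *RS2Z32*, and *RS2Z33*) have a model with a premature stop of this kind, more than 50 nt before the last exon junction, against 10.5% of 27444 protein-coding genes. They are 8 of the 29 models of the 10 genes, and the stops after 36 codons in *RS2Z32* and 55 in *RS2Z33* come from further models. Their gene-level values did not go one way. In the double mutant *SCL33* was 1.40-fold wild type, *RS2Z32* 0.963-fold, and *RS2Z33* 0.814-fold. A full-length model with a 3′-UTR of 350 nt or more was found in 4 of the 10 (*SCL30*, *SC35*, *RSZ21*, and *RSZ22*), against 18.5% of all genes. Of these, only *SCL30* was above wild type in the double mutant, at 1.19-fold. There 70% of all 10 genes were lower, as were 62.8% of loci in the abundance range, so this count does not set these 4 apart. *SC35*, at 0.965-fold, turned to a log2 ratio of 0.02 with the libraries rescaled to the same 75th percentile. The longest intron was 400 nt or more in 6 of the 10, against 23.8% of all genes, and reached 1100 nt in *SCL30*.

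The mutations were also compared in both backgrounds, since *upf3-1* against wild type and the double mutant against *upf1-5* share no library. Counted by any amount, 9 of the 10 genes were lower in *upf3-1* than in wild-type seedlings (50.8% of all loci). In the double mutant, 9 of the 10 were lower than in *upf1-5* (50.5% of all loci). Lower in both were 8 of the 10 genes, against 34% of all loci. Without *SCL28* they were 7 of 9, against 46.2% of loci in the range of abundance of these 9. The values of these 8 in the double mutant ran from 0.709 (*SCL28*) to 0.907 (*SCL30*) of their level in *upf1-5*. The exceptions were *RSZ22a*, 1.17-fold wild type in *upf3-1* and 0.899-fold *upf1-5* in the double mutant, and *SCL33*, 0.842-fold and 1.37-fold.

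The *upf1-5* mutation went with higher values for most of the genes. Counted by any amount, 7 of the 10 were higher in *upf1-5* than in wild-type seedlings (50% of all loci). These 7 ran from 1.02-fold (*SCL33*) to 1.53-fold (*RSZ22a*) wild type, and without replicates the lowest cannot be said to differ. In the double mutant, 8 of the 10 were higher than in *upf3-1* (50.3% of all loci). Higher in both were 7 of the 10, against 25.7% of all loci. All 7 are among the 9 genes other than *SCL28*, and 19.8% of loci in the range of abundance of these 9 were higher in both. *SCL28* and *RSZ22* were lower in both, and *RSZ21* was 0.964-fold wild type in *upf1-5* and 1.21-fold *upf3-1* in the double mutant. These counts were the same after the libraries were rescaled to a median ratio of 1 or to the same 75th percentile. The genes are not independent replicates, and each count rests on 4 libraries, of which those with *upf3-1* also had the lower summed FPKM and the lower *RBCS1A* values given above. The part of these differences was not tested.

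**Figure D5:**
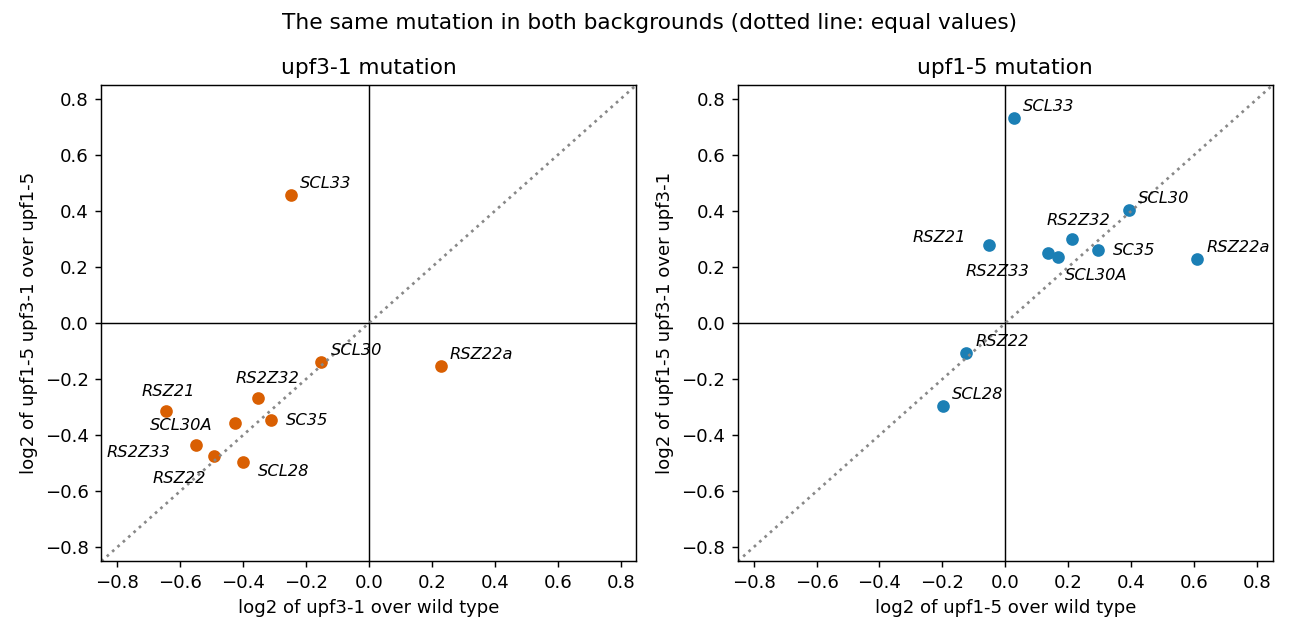
Log2 ratio for the *upf3-1* mutation (left) and the *upf1-5* mutation (right), without the other mutation on the x axis and with it on the y axis, 1 point per SR gene. On the left 8 of 10 genes lie below 0 on both axes, with *SCL33* and *RSZ22a* as the others, and on the right 7 of 10 lie above 0 on both.

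For 9 of the 10 genes the level in the double mutant was 0.767 (*RSZ22a*) to 1.26 (*RSZ21*) of that given by the product of the single-mutant ratios. *SCL33* had the largest value of the 10, at 47.7 FPKM against a product of 29.3, which is 1.63-fold. The share of all loci with as large a departure was not counted, and the value rests on 4 libraries without replicates. Over the 3 ratios to wild type, the annotated genes most like *SCL33* among 17346 with 1 FPKM or more in each library were *SCL14* (a GRAS family gene of a like name, not an SR gene), *YLS2*, and *ATAF2*, at root mean square distances of 0.00677, 0.0242, and 0.0257 on the log2 scale. *SCL14* was at 11.9, 12.1, 9.91, and 16.6 FPKM. In all, 43 genes lay within 0.1 of *SCL33*.

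The summed FPKM of all 10 genes was 449.2 in wild-type seedlings, 519.4 in *upf1-5*, 364.4 in *upf3-1*, and 443.3 in the *upf1-5 upf3-1* library. The RSZ genes made up 31.0%, 30.9%, 33.1%, and 29.8% of it and the RS2Z genes 29.9%, 29.3%, 27.2%, and 27.1%, while the SCL share was 31.4%, 31.6%, 32.0%, and 35.5%.

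Of the 8 other SR genes, 1 passed 2-fold in any mutant. This was *RS31a*, at 7.51 FPKM in wild-type seedlings and 12.6, 13.5, and 15.6 in *upf1-5*, *upf3-1*, and the double mutant. The most abundant of them in wild-type seedlings, *SR34* and *SR30*, were at 107.1 and 104.2 FPKM and at 0.772 and 0.945 of that in the double mutant. These were the only 2 of the 8 below wild type there, and the other 6 were above it. The largest of the 6 after *RS31a* was *RS40*, at 1.89-fold wild type in the double mutant and 1.85-fold in *upf1-5*. In *upf1-5*, 4 of the 8 were above wild type and 4 below. In *upf3-1*, 4 of these 8 genes were below wild type, against 9 of 10 in the set described here, and this difference was not tested. Among 19 measured partners of SR proteins (U1 and U2AF subunits, SR protein kinases, the importer MOS14, and cyclophilins), none passed 2-fold in any mutant. *SR45* and *SR45a* were also counted among these 19. Below wild type were 10 of the 19 in *upf1-5* and 13 in each of the other mutants. Of all 20048 loci, 49.5%, 50.7%, and 49.3% were lower in *upf1-5*, *upf3-1*, and the double mutant. Of the 4351 loci with a mean between 24.9 and 70.6 FPKM, 57.0%, 60.2%, and 62.8% were lower in the same order. Some of the partners lie below that range. Their most abundant members, *U2AF65A* and *U1A*, which encode a U2AF and a U1 subunit, were at 65.9 and 62.0 FPKM in wild-type seedlings and at 46.4 and 41.8 in *upf3-1*.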

How the data were processed

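RNA from seedlings of 4 genotypes was sequenced, 1 library each. The submitters' processing notes name TopHat, Cufflinks, and the TAIR10 build. The labels name a stranded mRNA kit and the methods of the study a total RNA kit, and read counts per library were not used here, so the sampling error of a value is not known. The deposited FPKM column adds the values of a pair of libraries, as the authors' Cuffdiff run normalized them. The deposited fold is the higher FPKM over the lower, rounded to 2 decimals, with its direction apart. The q-values of the authors' comparisons were not used, and 0 per-sample columns were left unmapped. The library named NMD2 was taken as the double mutant because the other names match the other genotypes.

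The FPKM of a library was solved from the sums and folds of the 6 pairs. Where more than 1 pair gave a value of at least 1 FPKM (77484 values), the pairs differed by less than 2% for 100% of values, and those of the 10 genes differed by at most 0.414%. On a simulated table of 20666 loci the largest error was 0.383% over values of 1 FPKM or more. The error of values below 1 FPKM was not measured and may be larger.

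A locus was counted at a fold of 2 with 1 FPKM in either library, and ratios used no pseudocount. Named genes were all 10 members, *UPF1* and *UPF3*, list genes past that limit, the 2 most abundant genes of the SR lists, and the 3 genes nearest to *SCL33*. Marker genes were fixed by name. The members and lists were chosen with earlier results of these data known. Alternatives were other scalings, folds, filters, and a pseudocount of 1. Gene models and sequences came from RefSeq TAIR10.1, the full-length model being that with the longest coding sequence, and identities from global alignments. Python 3.11.15, pandas 2.3.3, NumPy 2.4.6, Biopython 1.88, and matplotlib 3.10.9 were used.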

Additional observations from a re-analysis of the deposited data

Results flagged for a closer look

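The difference of *SCL33* between *upf3-1* and wild type (-0.25 on the log2 scale) and that between the double mutant and *upf1-5* (0.46) had opposite signs, 0.70 apart. For *RSZ22a* the same pair of values was 0.23 and -0.15, which is -0.38 apart. Of all 20048 loci, 33.3% had opposite signs in this pair, against 2 of the 10 SR genes. For *RSZ21* the difference between *upf1-5* and wild type (-0.05) and that between the double mutant and *upf3-1* (0.28) were 0.33 apart. For this mutation 49.3% of loci had opposite signs, against 1 of the 10 SR genes. These gaps are the log2 form of the departures from the product of the single-mutant ratios given above, not further evidence. The share of loci with gaps as large was not counted. With 1 library per genotype, none of these differences was tested.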

How the results depend on the processing

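No gene passed 2-fold under any scaling, filter, or value from the wild-type pair alone. At 1.5-fold there was 1 higher gene in *upf1-5*, 1 lower in *upf3-1*, and 2 lower in the double mutant, against 0 at 2-fold. These counts at 1.5-fold fell to 0 in *upf3-1* and 1 in the double mutant with the libraries rescaled to the same 75th percentile, and to 1 in the double mutant with the pseudocount. The median log2 ratios moved by no more than 0.1 under every alternative run. Of 156 alternative values of single genes and subfamily sums, 2 moved by more than 0.1, both with the pseudocount. Rescaling to the same 75th percentile raised the double mutant by 0.07 on the log2 scale and turned *SC35* and *RS2Z32* from -0.05 to 0.02 there. No library was left out, since each genotype had 1. No paired analysis was possible because no genotype had replicates. The comparison with loci of like abundance, the alternatives at 1.5-fold, and the rescaled counts of both mutations were added after seeing the data. Read depth is unknown, so values of *SCL28* near 2 FPKM are the least certain.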
